A study of Mus musculus with 8 samples.

Results

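Bhlha9, a basic helix-loop-helix (bHLH) transcription factor, was followed together with the genes of its possible dimer partners and of their inhibitors in sorted sensory neurons of mice that lacked it. The set was chosen by name and holds 8 of the 55573 genes counted: Bhlha9 itself, the E-protein genes Tcf3, Tcf4 and Tcf12, and the inhibitor-of-DNA-binding genes Id1, Id2, Id3 and Id4. The cells were C low-threshold mechanoreceptors (C-LTMRs), unmyelinated touch-sensing neurons, sorted by flow cytometry for GFP from adult mice. The 4 groups were male KO, male WT, female KO and female WT, where KO animals lacked Bhlha9 and WT animals carried it, and each group had 2 libraries that the submitters describe as biological replicates. The line that gives the GFP and the form of the Bhlha9 deletion are not given in the labels, and only the sorting signal is stated for all groups alike. Libraries are named by sex, genotype and replicate number, as in male_KO1.

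Tissue-restricted bHLH factors, the class II proteins, generally bind DNA as heterodimers with broadly expressed class I partners, the E proteins, and recognise a short palindromic sequence called the E-box. Tcf3 encodes E2A, Tcf4 encodes E2-2 and Tcf12 encodes HEB; despite the symbols, they are not the TCF factors of Wnt signalling. Id proteins have the helix-loop-helix but no basic region, so an E protein bound to an Id cannot bind DNA, and Id genes are classic transcriptional targets of BMP receptors acting through SMAD proteins. Human BHLHA9 is known for its role in limb development and forms dimers with TCF3, TCF4 and TCF12 in transfected cells.

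The 2 stretches of genomic DNA lie next to the deleted factor's own gene and to Id4. Among the partner genes Id4 had the highest mean level in WT cells. The stretches were chosen for this and because the E-box is the sequence that these dimers bind. Each is the 250 bases just before the transcript start in RefSeq (GRCm38.p6), printed 5′ to 3′ on the strand of the gene in lower case, with every E-box (CANNTG) in capitals. The Bhlha9 window is chr11:76672220-76672469 on the plus strand and the Id4 window is chr13:48260866-48261115 on the plus strand.
Bhlha9: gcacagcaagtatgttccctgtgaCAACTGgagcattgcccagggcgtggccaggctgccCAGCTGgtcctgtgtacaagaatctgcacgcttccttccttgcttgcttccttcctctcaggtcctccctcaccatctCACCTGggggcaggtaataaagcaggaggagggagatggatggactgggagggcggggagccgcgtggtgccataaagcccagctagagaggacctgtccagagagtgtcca
Id4: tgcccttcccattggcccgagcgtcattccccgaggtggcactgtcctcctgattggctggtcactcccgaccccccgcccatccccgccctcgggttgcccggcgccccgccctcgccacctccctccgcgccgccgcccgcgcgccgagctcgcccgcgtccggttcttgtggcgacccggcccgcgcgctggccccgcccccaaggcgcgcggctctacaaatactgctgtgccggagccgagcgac

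The Bhlha9 window held 3 E-boxes: CAACTG began at position -226 from the transcript start, CAGCTG at position -190 and CACCTG at position -112. CANNTG is its own reverse complement, so 1 search covers both strands. At least 1 E-box was found in 66.2% of the 32851 windows of this length in the same table, and 3 or more were found in 12.2%. The form CAGGTG, read on both strands as CAGGTG or CACCTG, was in 17.2% of windows. Id4 had no E-box in its window and 1 copy of GGCGCC, a GC-rich sequence that SMAD proteins of the BMP pathway can bind, which 9.59% of windows held; it is also its own reverse complement. Of the 8 members, 6 had a window in the table, namely Bhlha9, Tcf3, Tcf12, Id2, Id3 and Id4. Tcf3 and Id2 held 1 E-box each, CACTTG and CAGCTG, and Id3 held none. Like Id4, Id2 held 1 copy of GGCGCC, and the windows of Bhlha9, Tcf3, Tcf12 and Id3 held no copy. Of the 3 windows of Tcf12, 1 had no E-box, 1 had CAAGTG and 1 had CAGCTG. These letters are a description of the sequence and no measure of binding.

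The libraries held between 50919885 and 71956309 counts assigned to genes, and 22013 genes, all 8 members among them, had enough counts to be tested. CPM here are counts relative to the scaled library size, and 3 counts corresponded to between 0.0417 and 0.0589 CPM. The C-LTMR marker Th, the enzyme that makes the dopamine precursor, stood at 2976 and 4139 CPM in male KO, 4853 and 4483 CPM in male WT, 3797 and 5359 CPM in female KO and 4863 and 4032 CPM in female WT libraries. Of 12 C-LTMR markers, 1 had a positive and 11 a negative log2 fold change of KO over WT in males (median -0.35), against 11 positive and 1 negative in females (median 0.21), and edgeR called none. For 7 of the 12 the male KO libraries lay below the male WT libraries without overlap, as in 14.5% of all genes tested. For Osmr they lay above without overlap. In females Cacna1h and Fam19a4 were higher in KO without overlap, as in 14.2% of all genes tested, and none of the 12 was lower. The 12 myelinated afferent markers summed to 2543 CPM in male_KO1, which stood apart from the other libraries at 457 to 709 CPM. Glial and Schwann cell markers were present in all libraries. The 13 immune cell markers summed to between 13.5 and 28.5 CPM per library; Csf1r and Cd79a had counts in all 8 libraries, while Ptprc had none in 7 of the 8. A gene was called at an adjusted p below 0.05 in edgeR's quasi-likelihood test over all tested genes. At an unadjusted p below 0.05 there were 3.5% of genes in males and 3.81% in females. Only 1 gene was called in each comparison of KO with WT (0.00454% of the genes tested), and in each it was Bhlha9. With DESeq2 the same threshold called 166 genes in males (0.754%), 167 in females (0.759%) and 52 across both sexes (0.236%), and Bhlha9 was the only member among them.

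Bhlha9 (ENSMUSG00000044243) has a single exon that spans 76672470 to 76673676 of chromosome 11 (GRCm38, plus strand). Its counts were 9 and 18 in male KO libraries, against 9550 and 10252 in male WT libraries. In females the counts were 24 and 18 in KO libraries, against 7930 and 8040 in WT libraries. These correspond to 0.156 and 0.277 CPM in male KO, 151 and 161 CPM in male WT, 0.470 and 0.253 CPM in female KO, and 139.9 and 127 CPM in female WT libraries. Every KO library was far below every WT library, and a trace of reads over the exon, above the level of 3 counts, remained in each KO library. The KO mean was 0.139% of the WT mean in males and 0.270% in females.

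Bhlha9 fell in male KO cells with a log2 fold change of -9.47 (SE 0.43, edgeR adjusted p = 0.00344) and in female KO cells with -8.56 (SE 0.41, edgeR adjusted p = 0.00499). Across both sexes it fell by 8.99 on the log2 scale (edgeR adjusted p = 0.000211, SE 0.34). The difference between the sexes in the size of the fall was -0.91 (95% interval -2.08 to 0.26, edgeR adjusted p = 0.998). Male WT and female WT cells had 156 ± 6.87 and 134 ± 8.89 CPM (SD, n = 2 each), a log2 fold change of 0.23 (95% interval -0.45 to 0.90, edgeR adjusted p = 0.972). The call in males was lost without male_KO1 (log2 fold change -9.15, edgeR adjusted p = 0.0545) or without male_KO2 (-9.97, adjusted p = 0.0502). In females the edgeR call was lost without male_WT1 (-8.55, adjusted p = 0.0570), male_WT2 (-8.54, 0.0510), female_KO2 (-8.15, 0.0563) or female_WT1 (-8.48, 0.0563), and across both sexes it held without any one library. The authors' deposited tables of genes past 5% hold 150 genes in males and 13 in females. Bhlha9 had a log2 fold change of -7.40 in males and -6.05 in females there, and no other member was listed. These values come from the authors' own fit and not from edgeR, so their sizes are not directly comparable with those above.

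**Figure D1:**
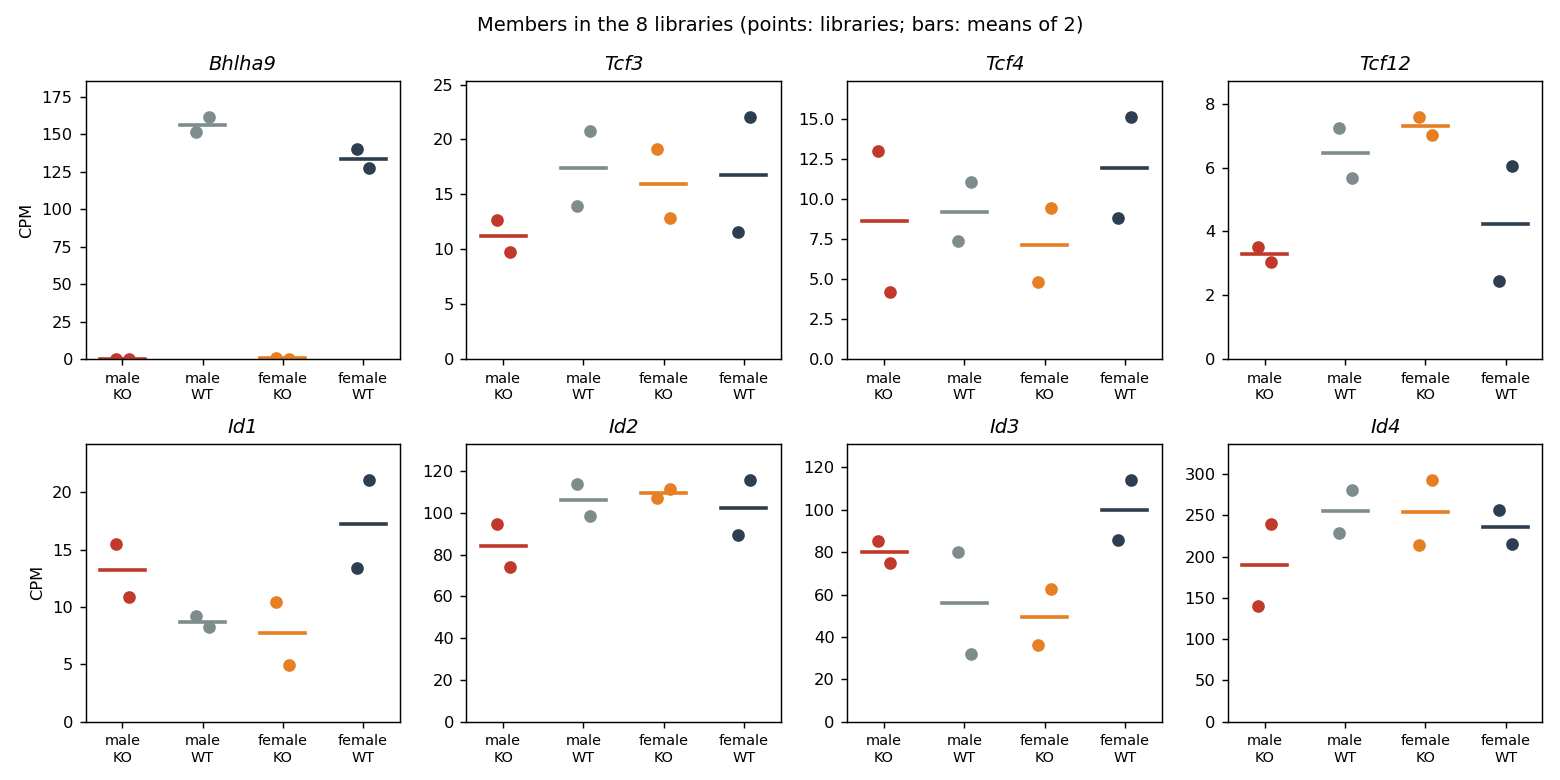
CPM of each of the 8 genes in each library; points are libraries, horizontal bars are means of 2, and the groups from left to right are male KO, male WT, female KO and female WT. Bhlha9 was at most 0.470 CPM in the 4 KO libraries and at least 127 CPM in the 4 WT libraries, while for the other 7 genes the KO and WT libraries taken over both sexes overlap.

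Levels of different genes were set side by side only per length, as TPM: counts divided by the length of each gene's merged exons and scaled to the same total in every library. In WT cells Bhlha9 was the most abundant of the set, at 272 ± 44.7 TPM (SD, n = 4), and ranked 627 of the 55573 genes by mean TPM. Id4 followed at 144 ± 23.3 TPM, and its range over libraries, 120.2 to 176 TPM, lay below that of Bhlha9, 227 to 323 TPM. Id2 and Id3 came next at 96.6 ± 14.1 and 96.4 ± 39.0 TPM, and their ranges overlapped. The range of Id3, 43.1 to 137 TPM, also overlapped that of Id4. Id1 stood at 24.7 ± 9.95 TPM, below Id3, and Tcf3 at 9.57 ± 3.01 TPM, below Id1. Tcf4 and Tcf12 were lowest, at 0.868 ± 0.260 and 0.787 ± 0.324 TPM, with overlapping ranges, and ranked 17317 and 17643.

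In KO cells the order among the other 7 genes was nearly the same: Id4 had 132 ± 41.1, Id2 89.7 ± 13.0, Id3 82.4 ± 28.3 and Id1 20.3 ± 8.11 TPM (SD, n = 4 each). The ranges of Id4, Id2 and Id3 overlapped each other in KO cells, and so did those of Id1 and Tcf3, which stood at 7.58 ± 1.87 TPM. Tcf12 and Tcf4 had 0.766 ± 0.323 and 0.646 ± 0.327 TPM in KO cells. Bhlha9 had 0.542 ± 0.232 TPM in KO cells, and with merged exons its range overlapped that of Tcf4.

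The merged exon length of Tcf4 is 27382 bp and that of Tcf12 is 15529 bp, each much longer than any single transcript, which lowers their TPM. With the length of the longest annotated transcript in its place, WT cells had 2.28 TPM of Tcf4 and 1.596 TPM of Tcf12. Both remained below Tcf3, at 10.8 TPM. Id4 and Id3 then had 119 and 111 TPM in WT cells, with overlapping ranges. On that scale the range of Bhlha9 in KO libraries, 0.234 to 0.697 TPM, no longer overlapped that of Tcf4, 0.977 to 2.75 TPM. Tcf3 supplied between 79.9% and 87.7% of the summed E-protein TPM in every library with merged exons, and between 66.2% and 78.7% with the longest transcript. The summed Id TPM was between 23.4 and 51.9 times the summed E-protein TPM over the 8 libraries with merged exons, and between 16.8 and 39.1 times with the longest transcript. By genotype the ratio with merged exons was 35.5 and 51.9 in male KO, 37.9 and 23.4 in male WT, 23.8 and 40.5 in female KO and 48.6 and 29.0 in female WT libraries, so KO and WT libraries overlapped in both sexes. Bhlha9 alone stood at 16.5 to 34.6 times the summed E-protein TPM in WT libraries with merged exons, or 10.4 to 21.7 times with the longest transcript, and at less than the E-protein sum in every KO library. These are ratios of transcripts and not of proteins.

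**Figure D2:**
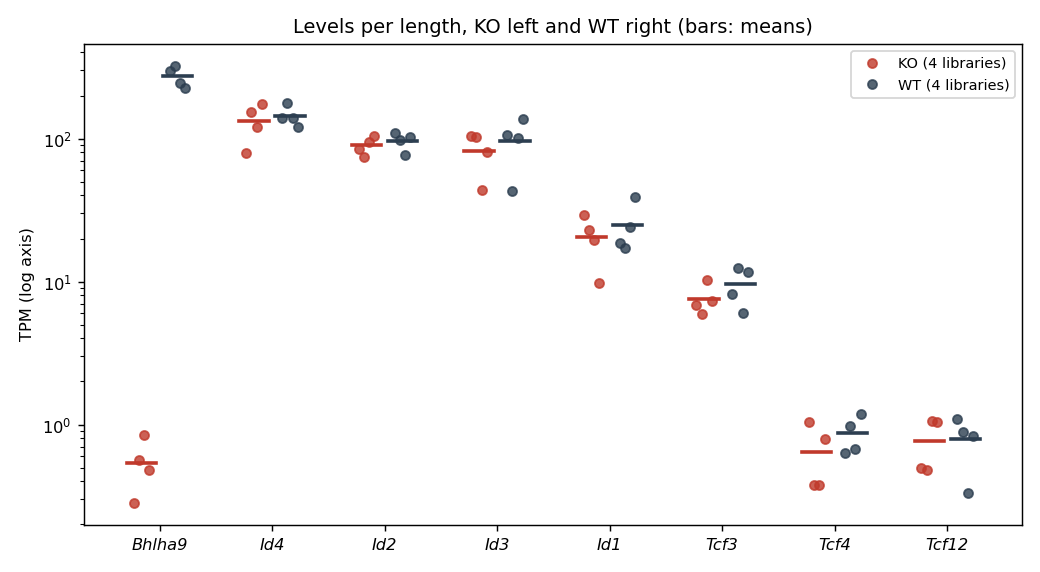
TPM per gene on a log axis, KO libraries left and WT libraries right of each pair, with 4 libraries each and bars for their means. Bhlha9 averaged 0.542 TPM in KO and 272 TPM in WT libraries, the Id genes lay above the E-protein genes in both genotypes by their means, and Tcf4 and Tcf12 were near 1 TPM or below in all libraries.

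The 3 E-protein genes did not pass the test in either sex. Tcf3 (ENSMUSG00000020167; chromosome 10, 80409514 to 80433647, minus strand), the gene of E2A, had 12.7 and 9.77 CPM in male KO, against 13.97 and 20.8 CPM in male WT libraries. In females it had 19.2 and 12.8 CPM in KO, against 11.6 and 22.0 CPM in WT libraries. The male KO libraries were both below the male WT libraries, while the female groups overlapped. Its log2 fold change was -0.63 in males (95% interval -1.67 to 0.41) and -0.07 in females (-1.11 to 0.96), with edgeR adjusted p = 1 in both. The male value was -0.35 without male_WT2, and the female value turned positive without female_KO2 (0.19) or female_WT2 (0.46).

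Tcf4 (ENSMUSG00000053477; chromosome 18, plus strand), the gene of E2-2, had 13.0 and 4.19 CPM in male KO, against 7.41 and 11.04 CPM in male WT libraries. Female KO libraries had 4.80 and 9.47 CPM, against 8.82 and 15.1 CPM in WT libraries. The groups overlapped in both sexes, and the 2 male KO libraries differed by 3.11 times, the widest replicate ratio of any E-protein gene in any group. The median ratio of the higher to the lower replicate over genes of at least 5 CPM was 1.39 in male KO and 1.22 in male WT cells. The log2 fold change of Tcf4 was -0.10 in males (95% interval -1.65 to 1.46) and -0.75 in females (-2.31 to 0.82), with edgeR adjusted p = 1 in both. The male value was -1.16 without male_KO1 and turned positive without male_KO2 (0.48) or male_WT2 (0.19), and the female value lay between -1.32 without female_KO2 and -0.30 without female_KO1.

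Tcf12 (ENSMUSG00000032228; chromosome 9, 71842688 to 72111871, minus strand), the gene of HEB, had 3.50 and 3.05 CPM in male KO, against 7.25 and 5.68 CPM in male WT libraries. In females the order was the other way round, with 7.58 and 7.04 CPM in KO, against 2.45 and 6.04 CPM in WT libraries. Neither sex showed an overlap. The log2 fold change was -0.98 in males (SE 0.54, 95% interval -2.27 to 0.31) and 0.78 in females (SE 0.54, -0.50 to 2.07), with edgeR adjusted p = 1 in both. The difference between the sexes was -1.76 (SE 0.77, 95% interval -3.58 to 0.06, edgeR adjusted p = 0.98). The female fold change rested mostly on female_WT1, the library with the lowest Tcf12, and was 0.28 without it and 1.57 without female_WT2.

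The 4 Id genes did not pass the test in either sex. Id1 (ENSMUSG00000042745; chromosome 2, 152736251 to 152737410, plus strand) had 15.5 and 10.9 CPM in male KO, against 9.20 and 8.25 CPM in male WT libraries. The female values were 10.5 and 4.93 CPM in KO, against 13.4 and 21.1 CPM in WT libraries. KO libraries were thus both above WT in males and both below WT in females. KO over WT, the log2 fold change was 0.59 in males (SE 0.47, 95% interval -0.51 to 1.70, edgeR adjusted p = 1) and -1.16 in females (SE 0.47, 95% interval -2.28 to -0.04, edgeR unadjusted p = 0.0440, adjusted p = 1). The difference between the sexes was 1.76 (SE 0.66, 95% interval 0.18 to 3.33, edgeR unadjusted p = 0.0338, adjusted p = 0.98). The male value was 0.30 without male_KO1. The female value was -0.72 without female_KO2, -0.80 without female_WT2 and -1.77 without female_KO1.

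Id3 (ENSMUSG00000007872; chromosome 4, 136143497 to 136145755, plus strand) had 85.5 and 74.7 CPM in male KO, against 80.3 and 31.9 CPM in male WT libraries. In females it had 36.0 and 62.5 CPM in KO, against 85.5 and 114 CPM in WT libraries. The male groups overlapped and the female KO libraries were both below the female WT libraries. Its log2 fold change was 0.51 in males (SE 0.46, 95% interval -0.59 to 1.62) and -1.02 in females (SE 0.47, -2.13 to 0.09), with edgeR adjusted p = 1 in both. The difference between the sexes was 1.53 (SE 0.66, 95% interval -0.04 to 3.10, edgeR adjusted p = 0.98). The male value rested on male_WT2, the library with the lowest Id3, and was -0.033 without it and 1.33 without male_WT1. In females it was -0.64 without female_KO1 and -0.80 without female_WT2. Between the sexes the difference was 0.97 without male_WT2 and 2.35 without male_WT1.

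Id1 and Id3 are also expressed by glia, vessels and fibroblasts, and most markers of those cells had fold changes of the same sign as Id1 and Id3 in each sex. Of 17 glial and Schwann cell markers, 14 had a positive and 3 a negative log2 fold change in males, against 4 positive and 13 negative in females, and none was called by edgeR. Summed over the list they stood at 5673 and 5815 CPM in male KO, 5717 and 3657 CPM in male WT, 3432 and 6075 CPM in female KO and 5213 and 5922 CPM in female WT libraries. Sox10, the transcription factor that defines glia, had 12.0 and 10.7 CPM in male KO, 5.80 and 1.57 CPM in male WT, 1.19 and 2.04 CPM in female KO and 6.14 and 5.96 CPM in female WT libraries. The endothelial junction gene Cldn5 was at 2.34 CPM in male_KO1 and 16.1 CPM in female_WT2. It had no counts in male_KO2, male_WT1 and both female KO libraries, and was at most 0.0353 CPM in male_WT2 and female_WT1.

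The 14 endothelial and mural markers summed to 505 and 416 CPM in male KO, 437 and 529 CPM in male WT, 652 and 537 CPM in female KO and 535 and 583 CPM in female WT libraries. The 9 fibroblast markers summed to 77.1 and 23.5 CPM in male KO, 17.5 and 8.27 CPM in male WT, 6.97 and 13.8 CPM in female KO and 33.7 and 47.7 CPM in female WT libraries. Of the tested markers, 10 of 12 endothelial and mural and 7 of 8 fibroblast genes had a positive log2 fold change in males, against 4 of 12 and 2 of 8 in females.

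Markers of peptidergic nociceptors, another class of sensory neuron, had these signs too. Of 9 tested peptidergic nociceptor markers, 8 had a positive and 1 a negative log2 fold change in males (median 1.73), against 1 positive and 8 negative in females (median -2.37). None of the 9 was called by edgeR, while DESeq2 called 2 in males, 3 in females and 4 for the difference between the sexes, which was positive for 9 of 9. The list summed to 1517 and 2122 CPM in male KO, against 699.8 and 756 CPM in male WT, and to 1566 and 507 CPM in female KO, against 1219 and 2003 CPM in female WT libraries. Of 11 tested myelinated afferent markers, 10 had a positive and 1 a negative log2 fold change in males, against 5 and 6 in females. Without male_KO1, the library in which they were highest, the male log2 fold changes were -0.85 for Tcf3, -1.11 for Tcf12 and 0.39 for Id3. Of 6 nonpeptidergic and pruriceptor markers, 5 were positive and 1 negative in males, against 3 and 2 in females. The part of any of these cells in the values of the Id genes and the E-protein genes was not tested. Fewer cells of a type and less RNA per cell cannot be told apart in such sorted pools.

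Id2 (ENSMUSG00000020644; chromosome 12, 25093799 to 25097140, minus strand) had 94.6 and 74.1 CPM in male KO, against 114 and 98.4 CPM in male WT libraries. Female KO libraries had 107 and 111 CPM, against 89.4 and 116 CPM in WT libraries. Both male KO libraries lay below both male WT libraries, and the female groups overlapped. Id2 varied least of the set, with a coefficient of variation of 14.2% over all 8 libraries, against 20.3% for Id4, 30.1% for Tcf3 and between 38.2% and 42.2% for Tcf12, Id3, Tcf4 and Id1. Its intervals were the narrowest: the log2 fold change was -0.33 in males (95% interval -0.83 to 0.17) and 0.09 in females (-0.40 to 0.59), with edgeR adjusted p = 1 in both. The male value lay between -0.54 without male_KO1 and -0.18 without male_KO2, and the female one turned negative without female_WT1 (-0.082). Negative in males and positive in females, these are the signs of the C-LTMR marker list, and Tcf12 and Id4 had them too.

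Id4 (ENSMUSG00000021379; chromosome 13, 48261228 to 48266026, plus strand) had 141 and 239.6 CPM in male KO, against 229 and 281 CPM in male WT libraries. The female values were 214 and 293 CPM in KO, against 257 and 215 CPM in WT libraries. The groups overlapped in both sexes. The log2 fold change was -0.42 in males (95% interval -1.13 to 0.28) and 0.10 in females (-0.60 to 0.81), with edgeR adjusted p = 1 in both. The male value lay between -0.87 without male_KO2 and -0.11 without male_KO1, and the female one turned negative without female_KO2 (-0.14) or female_WT2 (-0.019). Exons of 2 genes on the opposite strand overlap Id4, A330033J07Rik by 82 bases and Gm49291 by 171 bases. Counting took no account of strand and counted such reads in each gene, and the counts of these 2 genes were at most 8.79% and 13.9% of those of Id4.

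**Figure D3:**
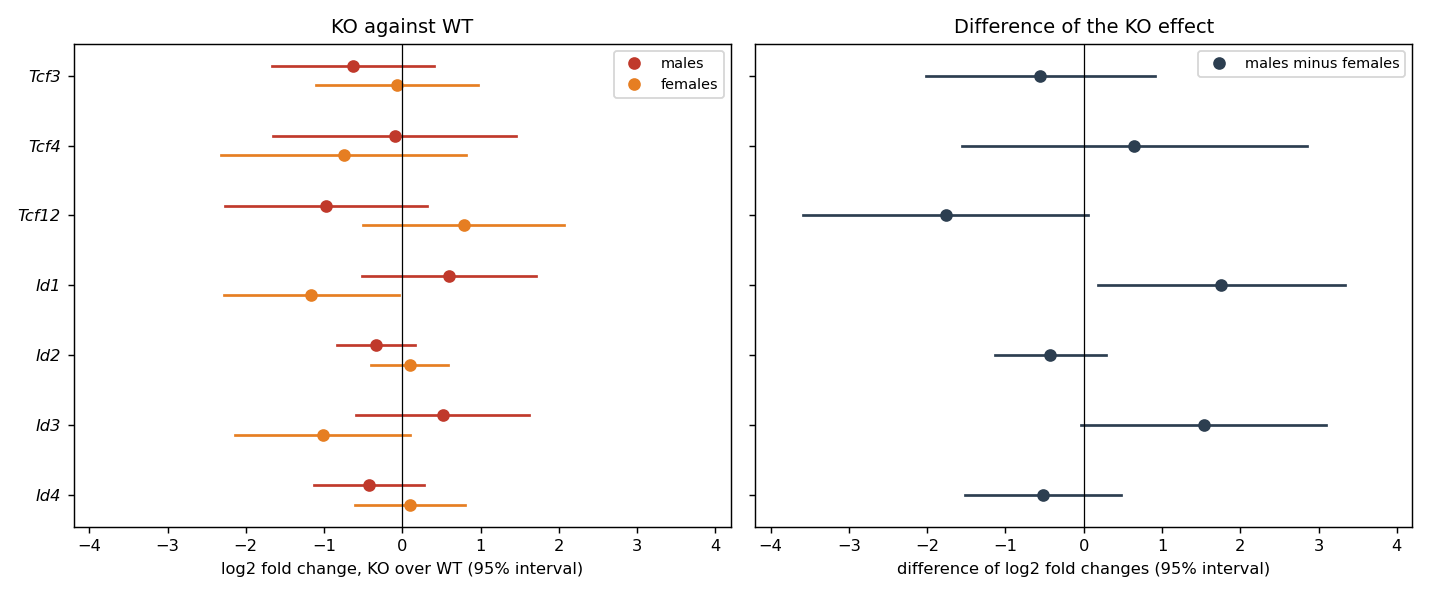
Left, log2 fold change of KO over WT for the 7 partner genes in males and in females; right, the difference between the sexes; points are edgeR estimates and lines their 95% intervals. In the left plot only the interval of Id1 in females (-2.28 to -0.04) lies on one side of 0, and in the right plot only that of Id1 (0.18 to 3.33); no adjusted p was below 0.05.

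In males, 4 of the 7 partner genes had KO and WT libraries that did not overlap, with Id1 higher and Tcf3, Tcf12 and Id2 lower in KO; this held for 29.1% of all genes tested (14.5% in each direction). In females, 3 of 7 did not overlap, with Tcf12 higher and Id1 and Id3 lower in KO, where 29.3% of all genes did so (14.2% higher and 15.1% lower in KO). Tcf12 and Id1 had opposite orders in the 2 sexes with no overlap in either, a pattern seen in 4.77% of all genes tested. None of the 7 separated all 4 KO from all 4 WT libraries, which 1.83% of all genes did. Across both sexes all 7 had a negative log2 fold change, between -0.42 for Tcf4 and -0.10 for Tcf12, with a median of -0.25, against 0.01 over all genes tested; 51.4% of all genes had a positive one. For 4 of the 7 the sign turned when a single library was left out, with values up to 0.17 for Tcf12, 0.10 for Id1, 0.061 for Id3 and 0.029 for Id4. None of the 7 had an unadjusted p below 0.05 in that comparison, where 3.56% of all genes did.

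WT cells of the 2 sexes were compared as a baseline; this comparison shares its WT libraries with those above. No member was called in male WT against female WT cells, nor was any other gene by edgeR (0% of 22013), while 977 genes (4.44%) had an unadjusted p below 0.05 and DESeq2 called 135 (0.613%). The log2 fold change, male WT over female WT, was -0.98 for Id1 (SE 0.47, edgeR adjusted p = 0.903) and -0.83 for Id3 (SE 0.47, adjusted p = 0.903). Tcf12 had 0.61 (SE 0.54), which was 0.098 without female_WT1 and 1.40 without female_WT2. Id1 was -0.61 without female_WT2, and Id3 lay between -1.64 without male_WT1 and -0.28 without male_WT2. Tcf4 had -0.38 (SE 0.65), and Tcf3, Id2 and Id4 lay between 0.05 and 0.11. The difference of the KO effect between the sexes called no gene by edgeR either (0% of 22013), with 1041 genes (4.73%) at an unadjusted p below 0.05 and 217 (0.986%) called by DESeq2, none of them a member.

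Apart from Bhlha9, 44 genes of class II bHLH factors were looked up, and few of them were expressed in these cells. In all 8 libraries 23 of the 44 had 0 counts, 4 had counts in every library and 8 could be tested. The most abundant was Ascl4, an achaete-scute family member, at 10.9 TPM in KO and 10.4 TPM in WT cells. Scx, known as a tendon factor, had 6.08 TPM in KO and 7.39 TPM in WT cells. No further factor of the list reached 5 TPM in WT cells, and the WT mean of Bhlha9 was 26.1 times that of Ascl4. None of the 8 tested factors was called by edgeR in any comparison. In males 3 had a positive and 5 a negative log2 fold change, with a median of -0.44, and in females 6 had a positive and 2 a negative one. The female median was 3.77, or 2.42 with the 3 genes that had no counts in one group set at their bound against 3 counts per library, and it rested on genes with few counts.

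Msc is the gene of musculin, a bHLH repressor known from muscle and lymphocytes. Of the 8 tested factors of this list, it alone had 4 KO and 4 WT libraries that did not overlap. Its 4 KO libraries lay above its 4 WT libraries, as in 0.936% of all genes tested. It had 1.54 and 6.17 CPM in male KO, against 0.555 and 0.865 CPM in male WT libraries. In females it had 3.09 and 4.05 CPM in KO, against 0.441 and 0.539 CPM in WT libraries. Across both sexes its log2 fold change was 2.65 (SE 0.60, edgeR unadjusted p = 0.00249, adjusted p = 1), and DESeq2 gave 2.66 with an adjusted p of 0.0148. In males it was 1.10 without male_KO2, against 2.44 with it (SE 0.90, edgeR adjusted p = 1).

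Bhlhe23, of the Bhlhe22 family of neural factors, was highest in 3 of the KO libraries. It had 0 and 1.39 CPM in male KO, 0 and 0.0943 CPM in male WT, 5.11 and 7.14 CPM in female KO and 0.476 and 0 CPM in female WT libraries, and its fold changes were not called. Ascl4 had 9.91 and 12.1 CPM in female KO, against 5.47 and 8.52 CPM in female WT libraries, a log2 fold change of 0.65 (SE 0.41, edgeR adjusted p = 1) that was 0.37 without female_WT1 and 1.01 without female_WT2.

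**Figure D4:**
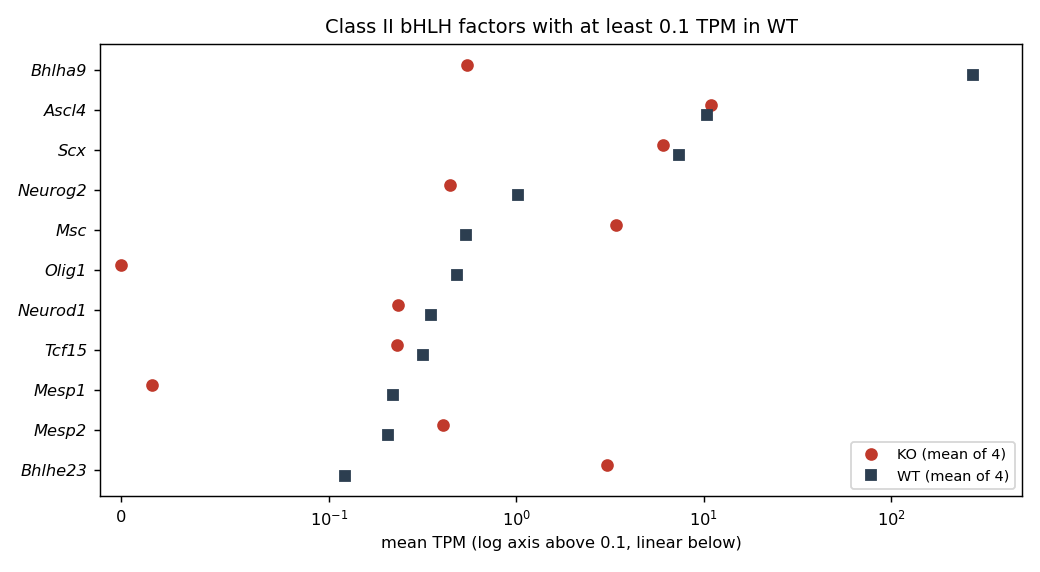
Mean TPM in KO (circles) and WT (squares) cells for Bhlha9 and the other class II factors with at least 0.1 TPM in WT cells; the axis is logarithmic above 0.1 and linear below. Bhlha9 had 0.542 TPM in KO and 272 TPM in WT cells, and no other factor exceeded the 10.9 TPM of Ascl4 in KO cells.

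The Hes, Hey and Bhlhe genes encode bHLH repressors that act downstream of Notch or of activity and hormone signals, and some bind E proteins. Of 12 such genes 9 were tested, 5 with a positive and 4 with a negative log2 fold change in males and 4 with a positive and 5 with a negative one in females, and none was called by edgeR or DESeq2. Their medians were 0.04 in males and -0.31 in females, against 0.02 and 0 over all genes tested. Hes6, which encodes a neurogenic relative that opposes Hes1, was the most abundant, at 147 TPM in KO and 183 TPM in WT cells. It had 93.1 and 121 CPM in male KO, against 150.2 and 121 CPM in male WT libraries. Female KO libraries had 126 and 127 CPM, against 155 and 164 CPM in WT libraries. Over both sexes the fold change was -0.34 on the log2 scale (SE 0.12, edgeR unadjusted p = 0.0286, adjusted p = 1).

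Hes1, the Notch target that represses neuronal bHLH genes, had 8.20 and 4.79 CPM in male KO, against 23.1 and 12.3 CPM in male WT libraries. The female values were 11.9 and 15.1 CPM in KO, against 13.7 and 22.6 CPM in WT libraries. The male groups did not overlap and the female groups did. The male fold change was -1.45 on the log2 scale (SE 0.48, edgeR unadjusted p = 0.0207, adjusted p = 1), and the difference between the sexes was -1.02 (SE 0.67, edgeR adjusted p = 0.9999). Without male_WT1 these were -0.92 and -0.49. Bhlhe40 and Bhlhe41, transcriptional repressors of the clock and stress responses, and Hey1 overlapped between KO and WT libraries in both sexes, with 14.2 to 51.9 CPM for Bhlhe40, 14.6 to 34.1 CPM for Bhlhe41 and 5.20 to 11.01 CPM for Hey1.

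Cofactors of E proteins include corepressors, acetyltransferases and the adaptors that join them to LMO proteins. Of 15 such genes 14 were tested, 7 with a positive and 7 with a negative log2 fold change in males and 5 with a positive and 9 with a negative one in females, and none was called by edgeR. The medians were -0.01 in males and -0.14 in females. Runx1t1 encodes ETO, a corepressor that binds the activation domain of E proteins, and it had 13.5 and 16.9 CPM in male KO, against 6.36 and 6.10 CPM in male WT libraries. In females it had 14.02 and 13.7 CPM in KO, against 9.03 and 8.89 CPM in WT libraries. All 4 KO libraries lay above all 4 WT libraries, as in 0.936% of all genes tested.

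The log2 fold change of Runx1t1 was 1.28 in males (SE 0.31, edgeR unadjusted p = 0.00453, adjusted p = 1) and 0.63 in females (SE 0.31, unadjusted p = 0.0809, adjusted p = 1). DESeq2 gave an adjusted p of 0.0434 in males. Between the sexes it differed by 0.66 (SE 0.43, edgeR adjusted p = 0.9999). Cbfa2t2, of the same corepressor family, went the other way in females, with 4.87 and 4.55 CPM in KO, against 17.8 and 19.3 CPM in WT libraries. In males it had 3.21 and 8.62 CPM in KO, against 5.47 and 12.8 CPM in WT libraries, which overlapped. Its log2 fold change in females was -1.98 (SE 0.61, edgeR unadjusted p = 0.0154, adjusted p = 1). The authors' deposited table for females, of 13 genes, lists it at -1.23 (SE 0.27, adjusted p = 0.0143) from their own fit. The difference between the sexes was 1.35 (SE 0.84, edgeR adjusted p = 0.9999), and 0.44 without male_KO2, 0.86 without male_WT1 and 2.04 without male_WT2.

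Ldb1, the LIM-domain-binding adaptor that bridges E proteins and LMO proteins, had 67.7 and 71.5 CPM in male KO, against 89.8 and 88.0 CPM in male WT libraries. Female KO libraries had 76.4 and 77.0 CPM, against 86.6 and 93.9 CPM in WT libraries. All 4 KO libraries lay below all 4 WT libraries, as in 0.895% of all genes tested. Over both sexes the fold change was -0.29 on the log2 scale (SE 0.10, edgeR unadjusted p = 0.0208, adjusted p = 1). Its relatives and partners did not separate in this way: Ldb2 had 169 to 263 CPM in KO and 202 to 254 CPM in WT libraries, Ssbp3 224 to 315 and 272 to 347 CPM, and Ssbp2 87.0 to 121 and 110.3 to 133 CPM. Ep300, a histone acetyltransferase that E proteins recruit, had 36.3 and 13.7 CPM in female KO, against 10.6 and 3.96 CPM in female WT libraries (log2 fold change 1.78, SE 0.63, edgeR adjusted p = 1). That value was 0.95 without female_KO1 and 2.66 without female_WT1.

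**Figure D5:**
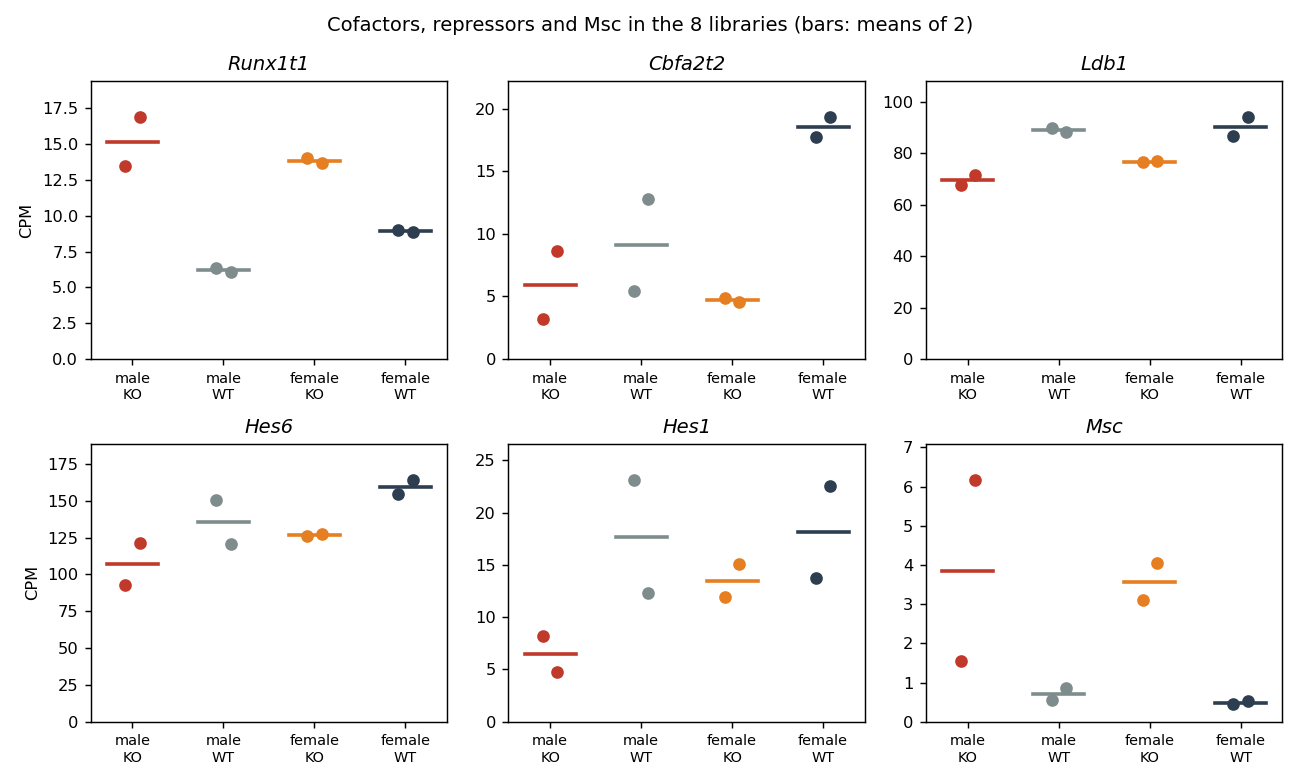
CPM in each library of 3 E-protein cofactors (Runx1t1, Cbfa2t2, Ldb1), 2 bHLH repressors (Hes6, Hes1) and Msc; points are libraries and bars means of 2. KO and WT libraries do not overlap in either sex for Runx1t1 and Msc (KO higher) and for Ldb1 (KO lower), and do not overlap in females for Cbfa2t2 (4.87 and 4.55 CPM in KO, 17.8 and 19.3 CPM in WT).

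Genes of BMP and SMAD signalling, through which Id genes are induced, were looked up as a list of 32, of which 26 were tested and none was called by edgeR or DESeq2. In males 14 had a positive and 12 a negative log2 fold change, with a median of 0.04; in females 10 had a positive and 15 a negative one, with a median of -0.32, or -0.37 with the genes whose one group had no counts set at their bound against 3 counts per library. Smad1, a SMAD that BMP receptors activate, had 112 and 122 CPM in male KO, 119 and 106 CPM in male WT, 118 and 107 CPM in female KO and 101 and 89.8 CPM in female WT libraries. The female KO libraries lay above the female WT libraries and the male groups overlapped.

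Acvr1, a type I BMP receptor, had 12.2 and 20.3 CPM in male KO, against 8.20 and 10.8 CPM in male WT libraries. In females it had 4.42 and 11.1 CPM in KO, against 12.4 and 18.6 CPM in WT libraries. This is the crossed order of Id1, and Bmp6 of the same list had it too. Opposite orders in the 2 sexes without overlap, of either direction, were seen in 4.77% of all genes tested, and a link with Id1 was not tested. The log2 fold change of Acvr1 was 0.78 in males (SE 0.53) and -1.004 in females (SE 0.53). Its difference between the sexes was 1.78 (SE 0.75, edgeR unadjusted p = 0.0505, adjusted p = 0.98). The male value was 0.35 without male_KO2, and the female one was -0.46 without female_KO1 and -1.81 without female_KO2. Smad4, the SMAD shared by the BMP and TGF-beta branches, crossed the other way, with 50.8 and 59.0 CPM in male KO, against 61.6 and 66.3 CPM in male WT libraries, and 56.0 and 62.4 CPM in female KO, against 47.6 and 46.2 CPM in female WT libraries. Its difference between the sexes was -0.55 (SE 0.26, edgeR adjusted p = 0.98). Bambi, a decoy receptor, had 24.4 and 12.0 CPM in male KO, against 6.14 and 1.12 CPM in male WT libraries (log2 fold change 2.33, SE 1.01, edgeR adjusted p = 1), a value of 4.02 without male_WT1 and 1.54 without male_WT2. Smurf2, a ubiquitin ligase that targets SMAD proteins, had 10.2 and 7.12 CPM in female KO, against 14.1 and 21.2 CPM in female WT libraries (-1.03, SE 0.50, adjusted p = 1).

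Genes with the pattern most like each member were found by Pearson's r of log2 CPM over the 8 libraries among the 11840 tested genes with a mean of at least 5 CPM. These values describe likeness over the same 8 libraries and carry no p. For Bhlha9, whose pattern is the genotype, they were Zswim4 (r = 0.96), Ubtf (0.94) and Ldb1 (0.94). For Tcf3 they were Atg2a, Mcf2l and Arhgap33 (0.96, 0.96 and 0.95), for Tcf4 Tnks1bp1, Vgf and Usp36 (0.93, 0.93 and 0.92) and for Tcf12 Wdr82, Slc16a3 and Impdh2 (0.95, 0.95 and 0.94). Id3 was followed most closely by Ednrb (0.98), a gene of the glial marker list, and by Palld (0.97) and Rgcc (0.96). For Id4 they were B130046B21Rik, Prkag1 and Sync (0.99 each), for Id1 Selenok-ps1, Trmt5 and Nol10 (0.95, 0.93 and 0.93) and for Id2 Zfp143, Ccdc9 and Il17rd (0.97, 0.94 and 0.94). None of these genes was itself a member, so no member had another member among its 3 most alike.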

How the data were processed

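Sorted cells gave polyadenylated RNA, which was amplified as full-length cDNA with SMART-Seq v4 and made into libraries with Nextera XT, per the labels' protocols. No molecular identifiers are stated, so counts may include copies made by PCR, and floors of 3 counts cover counting error only. The deposited count file holds integer counts per gene and the merged exon length, made with featureCounts 1.6.1 on Ensembl GRCm38 release 97, unstranded and with reads that overlap several genes counted in each, per the file headers. The submitters' processing notes name bcl2fastq 2.17.1.14, Subread 1.6.4 and DESeq2 1.14.1; no aligner is named in the sources used here. The authors' deposited tables list, for genes past 5%, log2 fold changes with their SE and p-values with adjusted p-values, and only values named as theirs come from them.

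Genes were filtered with filterByExpr, scaled by TMM and tested with the quasi-likelihood test of edgeR 4.0.16 (R 4.3.3, robust, two-sided, Benjamini-Hochberg over all 22013 genes) in a fit of 4 groups over all 8 libraries, with 4 residual degrees of freedom; both sexes together used sex as an additive term. SE is the log2 fold change over the square root of F, and 95% intervals use the t distribution with the total degrees of freedom. Fold changes carry edgeR's prior count, log2 CPM a prior count of 2. TPM were computed from counts and lengths. Alternatives were DESeq2 1.42.0, its size factors in edgeR, no filter on low counts, a replicate block, only the libraries of 1 sex, each library left out and the longest transcript length. Scripts were tested on simulated counts. Symbols came from the GRCm38 annotation for 55394 of 55573 identifiers.

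The members and lists were chosen with earlier results of these data known. Named from the lists were genes from the 4 with the highest mean CPM and the 3 with the lowest p in each sex among genes of at least 5 CPM. p-values rest on libraries stated to be biological replicates.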

Additional observations from a re-analysis of the deposited data

Results flagged for a closer look

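Tcf12 and Id1 stood out because every KO library lay on one side of the WT libraries in males and on the other side in females. For Tcf12 the log2 fold change in males minus that in females was -1.76, with KO lower in males and higher in females. For Id1 it was 1.76, with KO higher in males and lower in females. The edgeR test of the difference itself gave an adjusted p of 0.98 for each (unadjusted p = 0.0560 for Tcf12 and 0.0338 for Id1). Without any one library in turn the difference lay between -2.55 and -1.25 for Tcf12 and between 1.31 and 2.34 for Id1. Its sign could not turn in these 8 fits of each gene, because both were picked for groups without overlap in either sex. The kept sign therefore adds no evidence. By Dixon's test with a critical value of 0.829, no library stood apart from its genotype for any member in the 16 groups of 4 libraries examined. Each group joined both sexes, and with 4 libraries such a test finds only extreme values. It does not speak against the shifts with single libraries given above.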

How the results depend on the processing

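With 2 libraries a group the intervals are wide. They hold for each gene alone, while calls were adjusted over all 22013 genes tested. A fold change whose interval leaves out 0 could therefore still go undetected, as for Id1 in females (-2.28 to -0.04). DESeq2 called 166 genes in males, 167 in females, 217 for the difference between the sexes, 135 in male WT against female WT and 52 across both sexes, with Bhlha9 the only member; no filter on low counts called 3 in male WT against female WT. Same-numbered libraries did not deviate together (correlation -0.014 in males and 0.0015 in females, 2 pairs each). This shows no strong shift common to same-numbered libraries, but it cannot tell whether they were paired by animal or handling. With a replicate block edgeR called 0 genes in males and 0 in females (Bhlha9 adjusted p = 0.126 and 0.161), and with only female libraries 0 in females (0.193). Leaving out each library in turn, the number called was 0 to 1 in each sex. Bhlha9 kept log2 fold changes of -9.97 to -9.15 in males and -9.00 to -8.15 in females. With the longest transcript length the TPM of Bhlha9 in WT was 224, of Id4 in WT 119, of Tcf4 1.70 in KO and 2.28 in WT, and of Tcf12 1.56 in KO and 1.596 in WT. Signs of small fold changes turned when 1 library was left out, over these ranges: in females Tcf3 -0.46 to 0.46, Id2 -0.082 to 0.29 and Id4 -0.14 to 0.35; in males Tcf4 -1.16 to 0.48 and Id3 -0.033 to 1.33; across both sexes Tcf12 -0.51 to 0.17, Id1 -0.55 to 0.10, Id3 -0.63 to 0.061 and Id4 -0.31 to 0.029; in male WT against female WT Tcf3 -0.34 to 0.58, Tcf4 -0.71 to 0.064, Id2 -0.12 to 0.25 and Id4 -0.013 to 0.25; and for the difference between the sexes Tcf4 -0.43 to 1.22. The cause was not tested. No other fold change of a member turned its sign.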
